A study of Mus musculus with 96 samples.

Results

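The libraries described here are 31 of 96 single-cell RNA libraries, chosen by what they contain and not by the stage on their labels. A library qualified with 100000 or more gene counts, a count for 4000 or more genes, Mos under 100 CPM (counts per 1000000 of the library's total), and at least 1 count of Zfp352. Mos encodes the kinase that holds the egg in meiotic arrest, and its RNA is abundant in the oocyte. Zfp352 is a zinc finger gene switched on in the 2-cell embryo. These conditions held for 39 of the 79 libraries that passed both size limits. The 39 were then split by Zscan4d, a gene of the 2-cell burst: 20 libraries with at least 150 CPM are called high, 11 with under 50 CPM are called low, and 8 in between were left out of the comparison. Since Zscan4d, Zfp352 and Mos chose the libraries, their values below are a description. The Zscan4 family was not compared.

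The series profiled MII oocytes and 2-cell blastomeres of mice with a P620A substitution in Padi6, an oocyte protein of the cytoplasmic lattices. Polyadenylated RNA of each cell was copied with template switching and amplified by PCR, without molecular identifiers named in the labels' protocols. By label, the high libraries are 9 of mutant 2-cell blastomeres (Padi6MatP620A/+, the variant inherited from the mother), 5 of mutant oocytes (Padi6P620A/P620A) and 6 of wild-type oocytes (Padi6+/+). The low libraries are 9 labelled mutant oocyte and 2 labelled negative control, and the intermediate ones are 2 labelled mutant 2-cell, 5 labelled mutant oocyte and 1 labelled wild-type oocyte. No library labelled wild-type 2-cell (Padi6+/+) was among the 39. Among the 39, the stage labels go against the RNA content for the libraries labelled oocyte. The low libraries labelled negative control held 2152418 and 1334810 counts, so they are not blanks. Of the other libraries, 14 labelled wild-type 2-cell and 9 labelled mutant 2-cell had at least 100 CPM of Mos and no Zfp352 count. Labels are therefore quoted as labels and no genotype was assigned. Label and Zscan4d group cannot be told apart over all 31 libraries. Many of the main values are therefore also given within the label mutant oocyte (5 high and 9 low). A ratio given without such a value is pooled over labels and can differ within that label. All the cells shared 1 preparation protocol: oocytes were collected after superovulation with PMSG and hCG and freed of cumulus cells with hyaluronidase, and embryos came from in vitro fertilisation. The labels name neither the animal nor the embryo, so both blastomeres of an embryo may be present, and each group counts as 1 sample with no test.

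Fertilised mouse eggs start with RNA made in the oocyte, and transcription from the embryo's own genome begins with a minor wave in the zygote and a major wave in the 2-cell embryo. The major wave includes a brief burst of multicopy genes such as Zscan4, Eif1ad and Tdpoz, many of them driven by promoters derived from transposable elements. At the same time stored maternal RNAs are degraded, while mitochondrially encoded RNA is copied from the mitochondrial genome.

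Promoter sequences of 4 genes are shown first, because a short motif recurred among the genes that separated the Zscan4d groups most sharply. The windows run from 250 bases before to 50 after the gene start and come from RefSeq on GRCm38.p6, an older build than the GRCm39 alignment of the deposited counts. Capitals mark TAATCC, the core that homeodomain proteins of the Otx and Obox type recognise, or its reverse complement GGATTA. The following 4 windows are shown because they hold at least 2 matches and belong to named genes with more RNA in the high libraries. Snrpc, Ercc4 and Eif4a3l1 are of the sharpest set. Zfp352, a gene that also chose the libraries, is not of that set, so its matches are no part of the recurrence. One further gene of the sharpest set, which has no proper gene name, holds 3 matches and is not shown. They lie on the + strand at chr4:90218570-90218869 (Zfp352), chr17:27839837-27840136 (Snrpc), chr16:13109486-13109785 (Ercc4) and chr6:136327289-136327588 (Eif4a3l1).
Zfp352: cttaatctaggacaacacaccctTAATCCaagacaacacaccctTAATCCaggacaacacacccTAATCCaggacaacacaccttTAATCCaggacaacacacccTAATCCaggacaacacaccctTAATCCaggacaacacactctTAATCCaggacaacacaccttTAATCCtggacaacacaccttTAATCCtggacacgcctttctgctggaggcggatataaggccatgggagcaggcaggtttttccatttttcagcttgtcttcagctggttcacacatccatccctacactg
Snrpc: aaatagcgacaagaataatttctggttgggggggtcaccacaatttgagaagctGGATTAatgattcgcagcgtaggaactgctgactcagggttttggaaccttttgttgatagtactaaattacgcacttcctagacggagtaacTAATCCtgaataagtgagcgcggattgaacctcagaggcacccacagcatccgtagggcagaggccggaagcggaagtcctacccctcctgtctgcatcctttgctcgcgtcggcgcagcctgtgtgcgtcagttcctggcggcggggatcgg
Ercc4: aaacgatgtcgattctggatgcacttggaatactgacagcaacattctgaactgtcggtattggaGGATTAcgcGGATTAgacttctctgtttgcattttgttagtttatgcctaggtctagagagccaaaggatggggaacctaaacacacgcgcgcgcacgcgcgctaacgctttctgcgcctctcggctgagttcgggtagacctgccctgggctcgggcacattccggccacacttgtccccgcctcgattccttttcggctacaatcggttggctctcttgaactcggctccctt
Eif4a3l1: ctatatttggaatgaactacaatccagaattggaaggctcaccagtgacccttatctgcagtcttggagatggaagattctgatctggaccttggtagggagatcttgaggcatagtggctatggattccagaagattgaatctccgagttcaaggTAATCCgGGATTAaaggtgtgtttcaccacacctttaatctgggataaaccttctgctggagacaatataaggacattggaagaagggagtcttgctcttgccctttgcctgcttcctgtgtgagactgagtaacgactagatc
The Zfp352 window holds 9 matches, from 227 to 61 bases before the gene start. Snrpc, Ercc4 and Eif4a3l1 hold 2 each. Among all 27025 promoters of the RefSeq table, 8.14% held TAATCC on either strand. The share was 7.21% for the 6630 compared genes with a promoter in the table, 8.82% for genes at least 2-fold higher in the high libraries and 7.25% for genes at least 2-fold lower. Of 508 genes of the gained class, defined below, 11.0% held it, with 13.1% among the 229 at least 2-fold higher in the high libraries and 9.32% among the other 279. In the 73 genes that separated the groups most sharply (defined below), 37 had a promoter in the table and 10 of those, 27.0%, held the motif. The windows of Ddit4l and Dkkl1, the first and the fourth of those 73, held none. Of the 6 other motifs searched, the 37 windows held GGGCGG in 17 (45.9%, against 68.7% of the compared genes and 38.2% of all promoters), CCAAT in 15 (40.5%, against 45.2% and 41.1%) and TATAAA in 3 (8.11%, against 8.78% and 15.7%). TGCACAC was in 1 (4.69% and 5.02%), TCAAGGTCA in 1 (0.256% and 0.466%) and the Dux motif in 0 (0.0151% and 0.0407%). The motif and this gene set were chosen after the values were seen, a match is no evidence of binding, and gene copies in the set share promoter sequence.

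The libraries were of similar size. Total counts ran from 503644 to 2757133 (median 1425740) in the high and from 867795 to 3185910 (median 1626656) in the low libraries. Genes with a count ran from 6063 to 11824 (median 10286.5) and from 4328 to 12086 (median 10370), and after thinning to 100000 counts the medians were 7536 and 7544. Library 41, a low library labelled mutant oocyte, had the fewest genes of all 31. Padi6 RNA ran from 56.7 to 375 CPM in the high and from 102 to 500.04 CPM in the low libraries, and these ranges overlap.

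**Figure D1:**
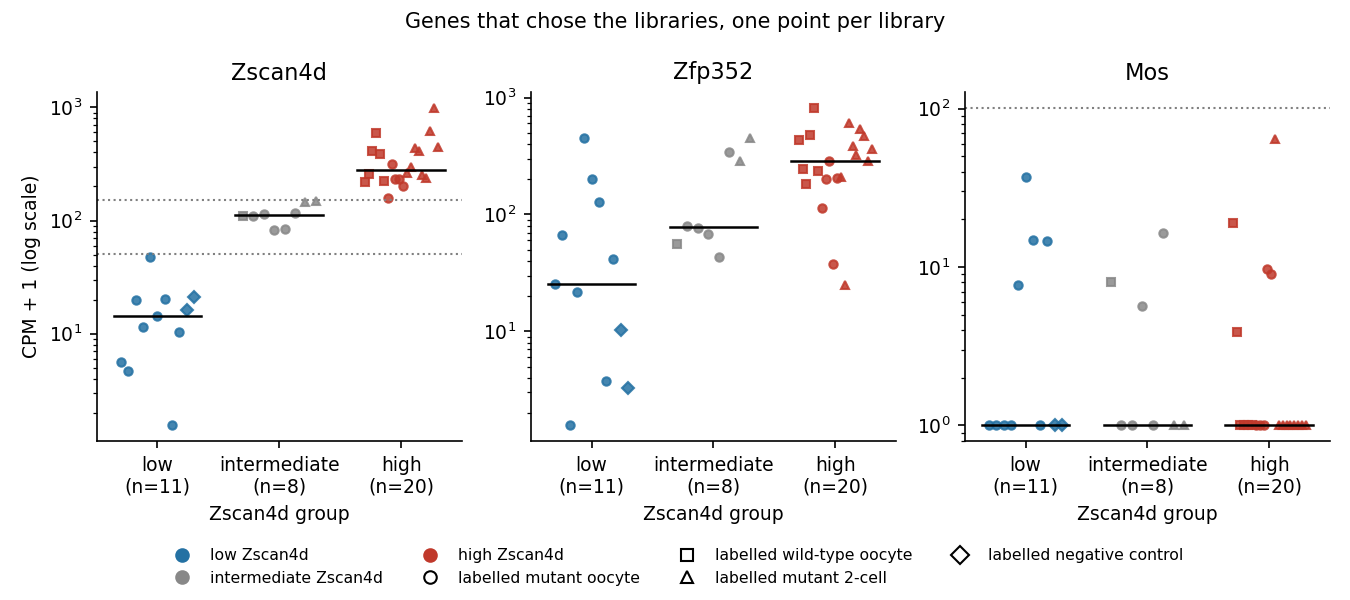
Zscan4d, Zfp352 and Mos in each of the 39 2-cell-like libraries, as CPM + 1 on a log axis, by Zscan4d group, with the group median as a line and the rule's limits dotted. Zscan4d medians are 13.4 CPM in the 11 low and 278.5 CPM in the 20 high libraries, while Zfp352 overlaps between the groups.

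Zscan4d ran from 155.6 to 988.4 CPM in the high libraries (median 278.5) and from 0.548 to 46.8 CPM in the low ones (median 13.4). The nearest library under the upper limit had 146.8 CPM, and the nearest over the lower limit had 81.5 CPM, so the upper limit falls within a continuous range and the lower one in a gap. Zfp352 ran from 23.8 to 814.7 CPM (median 285.7) in the high and from 0.566 to 453.9 CPM (median 24.3) in the low libraries, so low libraries were not all without embryonic RNA. Mos was at a median of 0 CPM in both groups.

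RNA of the other 2-cell burst genes was higher where Zscan4d was higher. The 43 burst genes found in the table (of 62 listed; Zfp352 included, Zscan4 left out) took between 0.170% and 1.11% of a high library's counts, with a median of 0.501%. In the low libraries they took from 0.037% to 0.280%, with a median of 0.10%. Of the 20 high libraries 15 lay above every low one, and of the 11 low libraries 9 lay below every high one, so the groups overlap in a narrow zone. Within the label mutant oocyte the medians were 0.259% in 5 high and 0.108% in 9 low libraries. High libraries labelled mutant 2-cell had the highest median, 0.624% (n = 9), against 0.421% for those labelled wild-type oocyte (n = 6). Across the 39 libraries the share and Zscan4d had a Spearman rho of 0.75, a description over libraries that share a preparation and a common total. Without Zfp352, which chose the libraries, the medians were 0.462% and 0.0938%, 15 high libraries lay above every low one, and rho was again 0.75.

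Genes were compared by pooled level: counts summed over the libraries of a group, divided by their summed totals and given in CPM. The pools held 30888477 counts for the high and 18499616 for the low group. A gene was compared when it reached 10 CPM in a group and had a count in at least 50% of the libraries of the higher group, and the call of higher or lower needed a 2-fold ratio. Intervals in brackets are exact 95% intervals for counting error only; PCR copies are not independent molecules, so they are narrower than the spread between cells. CPM is a share, so more of some RNAs and less of others cannot be told apart. Of 8646 genes compared, 1474 (17.0%) were higher and 923 (10.7%) lower in the high libraries, with a median log2 ratio of 0.02. Both pooled and within the label mutant oocyte, 1037 genes (12.0%) were higher and 605 (7.0%) lower. Within that label alone 20.7% of 8547 genes were higher and 14.1% lower.

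**Figure D2:**
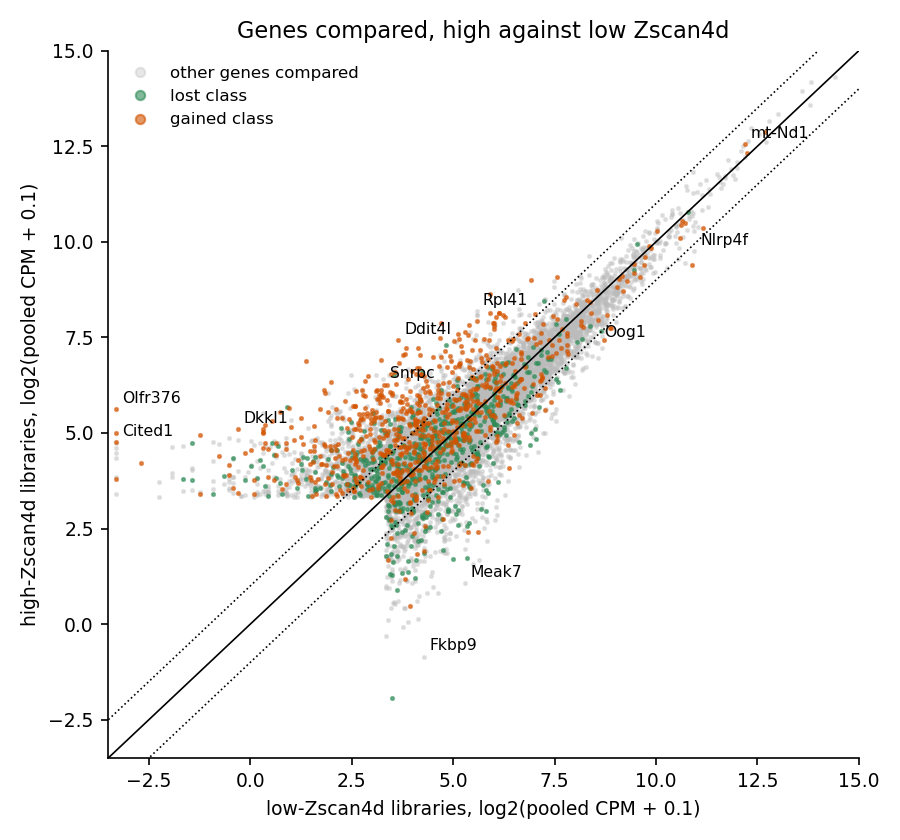
Each point is 1 of 8646 genes, its pooled level in the 11 low libraries (x) against the 20 high libraries (y), as log2(CPM + 0.1), with equality solid and 2-fold lines dotted. Genes of the gained class (orange) lie mostly above the line, reaching Olfr376 and Cited1 with 0 counts in the low libraries, while mt-Nd1 lies near equality.

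Of the 43 burst genes 37 could be compared, of which 33 were higher and 0 lower, beside 17.0% and 10.7% of all genes, and without Zfp352 32 of 36 were higher. Their median log2 ratio was 2.36 (2.39 without Zfp352), with an order-statistic interval over genes from 2.01 to 2.63. Within the label mutant oocyte the median for the same genes was 1.65, with 26 higher and 0 lower, beside 1573 and 1281 of all 8646 genes. A gene silent in low libraries enters such a count only through the high ones, so the shares of counts above, which hold all 43, carry the description.

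Among its members, the Eif1ad genes, near copies of the translation initiation factor eIF1A, had 15 of 16 compared copies higher and 0 lower, with ratios from 1.59 to 27.4 and a median of 6.21. The highest, Eif1ad19, had 34 counts in the low libraries, 24 of them in library 29, and without that library its ratio was 84.3 [45.7 to 176]. Eif1ad15 ran from 80.2 to 1171 CPM in the high libraries (median 391.9) and from 0 to 158 CPM in the low ones (median 42.1). Its pooled ratio was 6.59 [6.2 to 7.02], and it was 3.93 within the label. All 4 compared Tdpoz genes, which encode TRAF-domain and BTB-domain proteins, were higher. Tdpoz8 ran from 86.8 to 487 CPM (median 230.6) against 0 to 155.5 CPM (median 33.6), with 13 high libraries above every low one. Both compared Eif4a3l genes, relatives of an exon junction helicase, were higher, and Eif4a3l1 was at 272 against 75.5 CPM, a ratio of 3.61 that becomes 6.75 without low library 43. Reads of such near-identical copies can be split between them, so the value of a single copy is uncertain. Tcstv1, another 2-cell multicopy gene, was 2.14-fold higher in the pool but 1.19-fold lower within the label.

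Not every gene switched on in these cells followed Zscan4d. To separate the arrival of embryonic RNA from its link to Zscan4d, genes were classed in libraries of neither group, by the 8 intermediate libraries over 39 oocyte-like ones with at least 100 CPM of Mos and no Zfp352 count. By label the 39 oocyte-like libraries are 14 wild-type 2-cell (Padi6+/+), 9 mutant 2-cell, 12 wild-type oocyte and 4 negative control, with 0 labelled mutant oocyte, whereas 7 of the 8 intermediate ones carry a mutant label. Label and RNA content therefore cannot be told apart in these classes. Those at least 4-fold higher in the intermediate libraries are called the gained class (904 of 9820 genes, 9.21%) and those at least 4-fold lower the lost class (1542 genes, 15.7%). Of the gained class 742 could be compared between high and low: 349 were higher and 46 lower, with a median log2 ratio of 0.88 (interval 0.74 to 1.06) and 0.59 within the label.

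The share that was higher followed the size of the gain, and the counts stand beside 17.0% higher and 10.7% lower of all genes. Of 168 genes gained at least 64-fold, 138 could be compared, and 117 of these (84.8%) were higher and 1 lower, with a median log2 ratio of 2.43. Of 111 gained between 16-fold and 64-fold, 85 could be compared, of which 59 (69.4%) were higher and 2 lower. Of 625 gained between 4-fold and 16-fold, 519 could be compared, of which 173 (33.3%) were higher and 43 lower, with a median of 0.44. Within the label the medians of these bins were 1.59, 0.96 and 0.38. The intermediate libraries carry middling Zscan4d by the rule, so the classes are not wholly independent of it. Zfp352 is of the gained class through the rule itself, since the oocyte-like libraries were chosen without a count of it. The class also holds burst genes such as Eif1ad14, Tdpoz8 and Eif4a3l1, so it is not separate from the burst list. Its values without these genes were not computed. A gene silent in low libraries could be compared only through its level in the high ones.

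Krt71, a keratin, was gained (25.7 CPM in the intermediate against 3.30 CPM in the oocyte-like libraries) but lower where Zscan4d was high. It ran from 0 to 110 CPM in the high libraries, with a median of 0, and from 1.5 to 242 CPM in the low ones, with a median of 64.1. Krt71 was 4.93-fold lower in the pool [4.46 to 5.46] and 7.94-fold lower within the label, with 13 of 20 high libraries below every low one. Duoxa2, a maturation factor of dual oxidases, did not separate the groups: it was at 58.1 against 80.1 CPM, with the high library above the low one in 56.6% of pairs, and without low library 41 the ratio of low to high was 0.346, so that more RNA lay on the high side. Klf17, a transcription factor stored in the oocyte, was at 1139 against 1407 CPM.

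Gene by gene, separation was measured as the share of the 220 pairs of a high and a low library in which the high one had more CPM, ties shared equally. That share reached 90% for 73 genes, 0.844% of those compared. Of the 73, 47 (64.4%) were of the gained class, which holds 8.58% of all compared genes. Only Ddit4l, 0.0116% of the genes compared, was higher in every high library than in every low one.

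Ddit4l, which encodes an inhibitor of mTORC1 signalling, ran from 39.4 to 497 CPM in the high libraries (median 172.9) and from 0 to 34.6 CPM in the low ones (median 10.7). The groups did not overlap, and the pooled levels of 172.5 and 12.3 CPM gave a ratio of 14.0 [12.3 to 16.1]. Within the label it ran from 40.3 to 112 CPM in 5 libraries and from 0 to 34.6 CPM in 9, a ratio of 5.55. Snrpc, a protein of the U1 particle that recognises the 5′ splice site, ran from 24.3 to 246 CPM (median 64.1) against 0 to 25.8 CPM (median 8.07). Its ratio was 7.92 [6.80 to 9.27], and 19 of 20 high libraries lay above every low one. Dkkl1, a secreted relative of the Dickkopf Wnt antagonists, ran from 1.87 to 158 CPM (median 32.1), while 9 of 11 low libraries had 0 counts. Its ratio was 48.7 [28.3 to 91.7]. Of its 13 low counts 12 came from library 37, and without that library the ratio is 602 [108 to 23790].

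**Figure D3:**
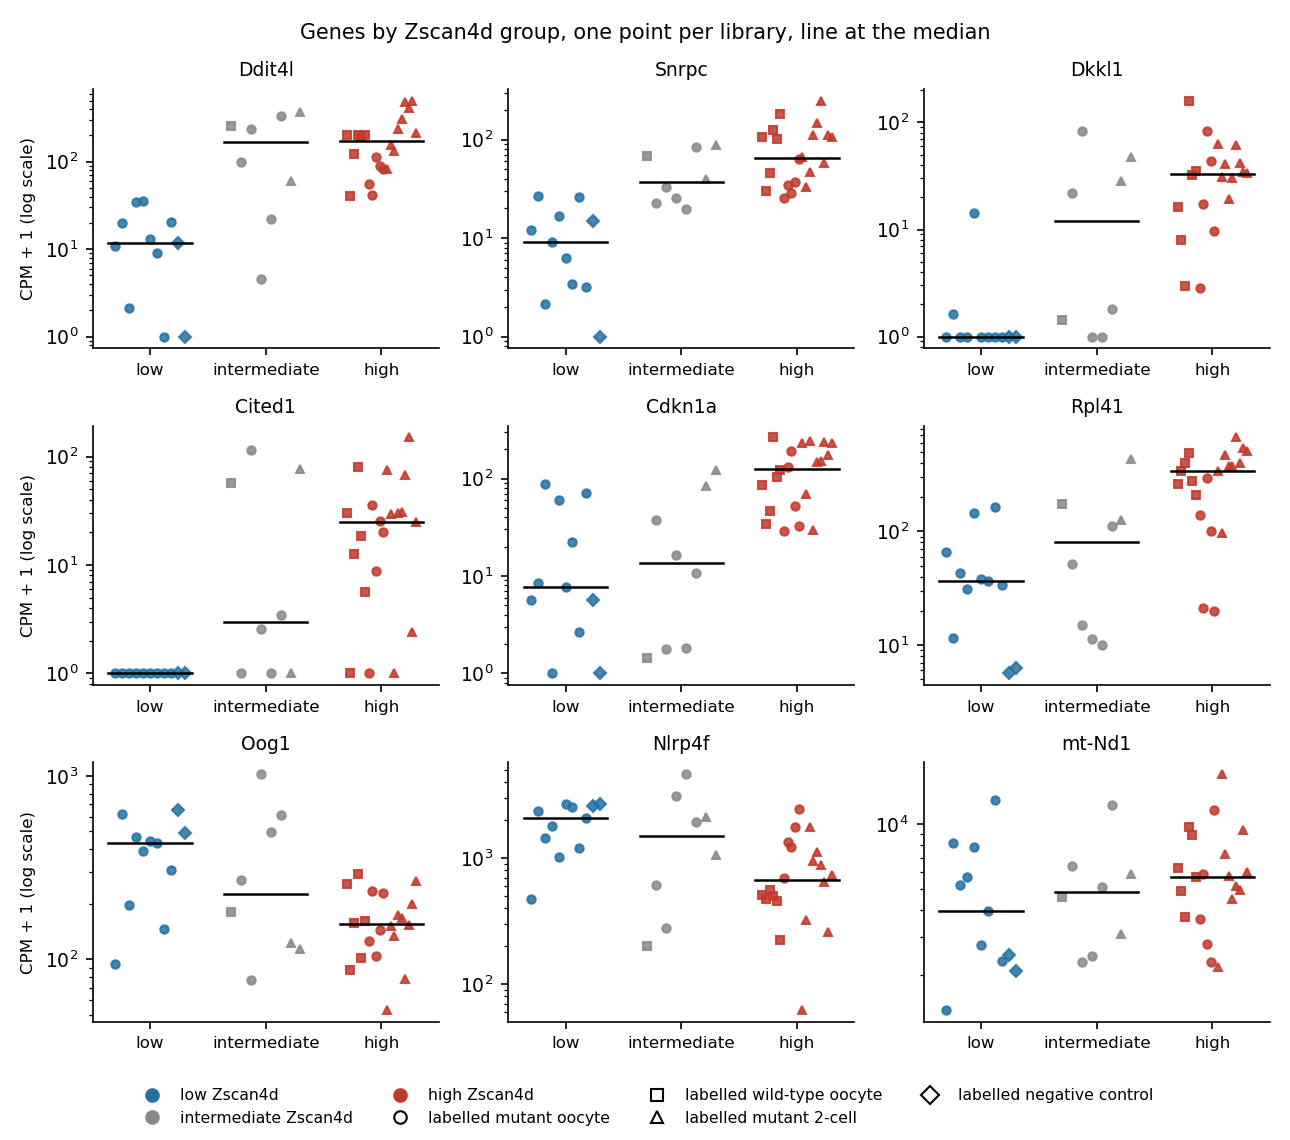
CPM + 1 on a log axis for 9 genes in the low, intermediate and high libraries, 1 point per library with its label as the shape and the median as a line. Ddit4l separates the low from the high libraries completely, Cited1 has 0 counts in all 11 low libraries, Oog1 and Nlrp4f are lower in most high libraries, and mt-Nd1 overlaps throughout.

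Cited1 and Olfr376 were without a count in all 11 low libraries. Cited1, a coactivator that binds CBP and p300, ran up to 149 CPM in the high libraries with a median of 24.0 and a count in 17 of 20. Olfr376, annotated as an olfactory receptor, ran up to 225 CPM with a median of 61.4 and a count in 18 of 20. Against a floor of 3 counts over the low group, Cited1 was at least 166-fold and Olfr376 at least 305-fold higher. The PRAME-family genes Pramel6 and Pramel7 were likewise at 0 in the low libraries and at 22.1 and 20.2 CPM in the high pool, at least 136-fold and 124-fold higher. Over the 25 compared Pramel genes 9 were higher and 2 lower, beside 17.0% and 10.7% of all genes.

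Other genes of the 73 have roles outside the burst. Znhit3, a factor in assembly of small nucleolar ribonucleoproteins, ran from 52.4 to 396 CPM in the high and from 0 to 70.1 CPM in the low libraries, a ratio of 5.53 and of 6.2 within the label. Zfp296, a zinc finger protein of pluripotent cells, ran from 77.7 to 539 CPM against 0 to 112 CPM, and Arid3a, a DNA-binding protein of the trophectoderm, from 3.19 to 120 CPM against 0 to 23.6 CPM. Their ratios were 4.17 and 9.37. Zfp296 and Arid3a were not of the gained class. Ercc4, an endonuclease of nucleotide excision repair, was at 176.5 against 35.2 CPM, a ratio of 5.01 that becomes 14.5 without low library 43. Pabpn1, the nuclear poly(A)-binding protein, was at 512 against 120 CPM, a ratio of 4.26.

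Genes that ran opposite to Zscan4d were fewer and less sharply separated. The high library was the higher one in at most 10% of pairs for 5 genes (0.0578% of those compared), and in no gene was every high library below every low one (0.0%). The 5 were Lin7c, Sms, Adam9, Slc39a6 and Lzts1, named after their values were seen. Lin7c, a scaffold protein of cell junctions, ran from 19.8 to 157 CPM in the high and from 134 to 248 CPM in the low libraries, with 15 high libraries below every low one, and its ratio was 1.94-fold lower [1.85 to 2.03]. Sms, spermine synthase, was 1.57-fold lower and Slc39a6, a zinc importer, 2.11-fold lower. By ratio, Fkbp9, a peptidyl-prolyl isomerase of the endoplasmic reticulum, was 42.5-fold lower in the high pool, with a count in 1 of 20 high and 7 of 11 low libraries, and all 14 of its high counts came from library 80, without which it was at least 190-fold lower against a floor of 3 counts. Meak7, a lysosomal protein linked to mTOR, was 19.4-fold lower with a count in 5 of 20 and 8 of 11, and 31.9-fold lower without high library 46.

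Early embryo transcription factors were mixed: of 36 listed genes 22 could be compared, with 9 higher (40.9%) and 3 lower (13.6%), beside 17.0% and 10.7% of all genes, and a median log2 ratio of 0.46. Id1, an inhibitor of basic helix-loop-helix factors, was at 41.9 against 4.65 CPM, 9.01-fold higher and 18.0-fold higher without low library 37. Pou5f1, the pluripotency factor Oct4, was at 956 against 914 CPM, a ratio of 1.05 [1.03 to 1.07]. Sox2 did not reach 10 CPM and was not compared. Of 20 other early embryonic genes 17 could be compared, 11 (64.7%) higher and 1 (Krt71) lower. The median log2 ratio of this list was 2.12 with a wide interval from -0.30 to 3.13, and 0.88 within the label. Its summed share differed little, with medians of 0.247% in the high and 0.225% in the low libraries and a Spearman rho of 0.15 with Zscan4d. Alppl2, an alkaline phosphatase, ran up to 449.7 CPM in the high and 45.3 CPM in the low libraries with medians of 141 and 9.84, a ratio of 10.4 and of 9.33 within the label. Snai1, a zinc finger repressor, was 18.3-fold higher and Pdxk, pyridoxal kinase, 17.9-fold higher.

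Among 30 listed maternal regulators of genome activation 28 could be compared, with 4 higher (14.3%), 3 lower (10.7%) and a median log2 ratio of -0.09, so the list as a whole had shares near the 17.0% and 10.7% of all genes. Zscan5b was at 117.5 against 30.9 CPM, Dppa4, a chromatin protein of pluripotent cells, at 53.7 against 14.3 CPM, and Ep300, a histone acetyltransferase, at 72.4 against 19.4 CPM. All 3 were higher, by 3.80-fold, 3.75-fold and 3.73-fold. Chaf1a, the large subunit of chromatin assembly factor 1, ran from 0 to 410 CPM in the high (median 121) and from 0 to 527 CPM in the low libraries (median 262), 2.26-fold lower in the pool and 1.48-fold lower within the label. When libraries were left out in turn Chaf1a was 1.85-fold lower at the least. Hdac1, a histone deacetylase of the gained class, was at 69.9 against 3.41 CPM, 20.5-fold higher [16.0 to 26.8] and 21.5-fold higher within the label.

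**Figure D4:**
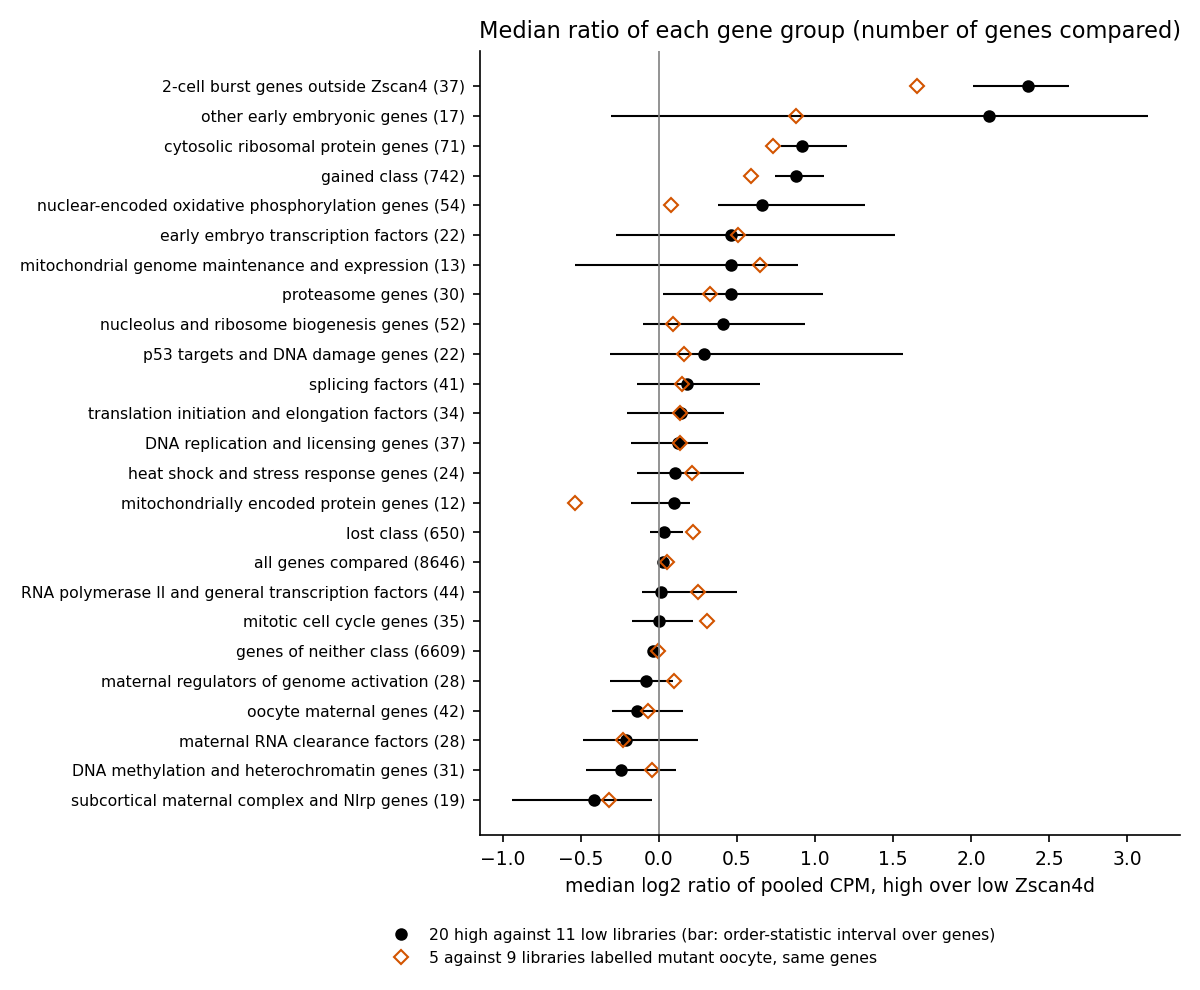
Median log2 ratio of pooled CPM, high over low, for each gene group with its number of compared genes (black, bar: order-statistic interval over genes) and for the same genes within the label mutant oocyte (orange, 5 against 9 libraries). The 2-cell burst genes stand at 2.36 and 1.65, oocyte maternal genes near 0, and mitochondrially encoded genes at 0.09 and -0.54.

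Stored oocyte RNAs were near equal between the groups. The 49 oocyte maternal genes took a median of 6.40% of counts in the high libraries (range 5.00% to 8.36%) and 6.55% in the low ones (range 4.74% to 8.04%), and these ranges overlap almost fully. Of 42 compared, 2 were higher and 3 lower, fewer than the 17.0% and 10.7% of all genes, and the median log2 ratio was -0.14 (interval -0.30 to 0.16). Gdf9 and Bmp15, growth factors that the oocyte secretes, were at 609 against 701 CPM and 1831 against 2252 CPM. Btg4, the adaptor that brings the deadenylase complex to maternal RNA, was at 5871 against 4543 CPM. The lost class had a median near equality but more genes called in both directions than all genes: of 1542 genes 650 could be compared, 139 (21.4%) higher and 112 (17.2%) lower, beside 17.0% and 10.7% of all genes, with a median log2 ratio of 0.03 and 0.21 within the label. Whether this class holds RNAs of other cells attached to the oocyte-like libraries was not tested, so it is not taken as a list of maternal RNAs alone.

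Some oocyte RNAs were lower where Zscan4d was high. Oog1, a PRAME-family gene of the oocyte, ran from 52.0 to 290.3 CPM in the high libraries (median 155) and from 93.3 to 655.5 CPM in the low ones (median 431.5). It was 2.34-fold lower [2.26 to 2.43] and 2.06-fold lower within the label, and 8 of 11 low libraries lay above every high one. Fbxw14, an oocyte F-box gene, was 2.15-fold lower, and 1.73-fold lower at the least when libraries were left out in turn. Plat, which encodes tissue plasminogen activator, was 3.74-fold lower in the pool, but the ratio becomes 1.01 without low library 41.

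Members of the subcortical maternal complex and oocyte Nlrp genes, the group to which Padi6 belongs, had a median below equality. All 19 could be compared, with 2 higher (10.5%) and 4 lower (21.1%), beside 17.0% and 10.7% of all genes, and a median log2 ratio of -0.42 (interval -0.94 to -0.05), and -0.32 within the label. Their summed share had medians of 3.64% in the high and 4.25% in the low libraries, with overlapping ranges. High libraries labelled mutant 2-cell had a median of 2.26% (n = 9), against 4.33% for those labelled mutant oocyte (n = 5) and 4.66% for wild-type oocyte (n = 6). Low libraries labelled mutant oocyte had a median of 4.15% (n = 9). Nlrp4f ran from 61.4 to 2445 CPM in the high (median 665) and from 468 to 2702 CPM in the low libraries (median 2070), 2.27-fold lower in the pool but 1.25-fold lower within the label. Nlrp9b and Nlrp9a were 2.68-fold and 2.15-fold lower, and 2.13-fold and 1.75-fold lower within the label. When libraries were left out in turn Nlrp9a was 1.90-fold lower at the least. Padi6 itself was at 177 against 288 CPM, 1.63-fold lower and 1.25-fold lower within the label. Nlrp5, which encodes the complex member MATER, was at 231 against 185 CPM, and Khdc3, its partner FILIA, was 2.25-fold higher in the pool but 1.65-fold lower within the label.

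Of 31 listed factors of maternal RNA clearance 28 could be compared, with 1 higher (3.57%) and 4 lower (14.3%), beside 17.0% and 10.7% of all genes. Xrn1, the cytoplasmic 5′ to 3′ exonuclease, was at 33.2 against 13.0 CPM, 2.55-fold higher. Cnot6, Cnot11 and Cnot10, subunits of the CCR4-NOT deadenylase complex, were 2.39-fold, 2.33-fold and 2.12-fold lower. Without low library 41 Cnot6 was at a ratio of low to high of 0.938 and Cnot11 of 1.83, and without low library 38 Cnot10 was at 1.12. Each of these 3 calls thus fell under 2-fold without 1 library. Cnot11 and Cnot10 stayed lower at these values and Cnot6 did not.

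Mitochondrially encoded RNA overlapped between the groups. The 13 protein genes took from 0.767% to 5.77% of counts in the high libraries (median 2.17%) and from 0.600% to 6.67% in the low ones (median 1.42%), with a Spearman rho of 0.14 over the 39 libraries. Of 12 compared, 0 were higher and 0 lower, with a median log2 ratio of 0.09 (interval -0.18 to 0.20). The direction turned within the label, where the median was -0.54. There 0 were higher and 3 lower, beside 1573 and 1281 of all 8646 genes. Medians of the share within the label were 1.33% in the high and 1.65% in the low libraries. Library 41 held 6.67% of mitochondrial counts, the highest of the low group, and without it the pooled median was 0.30, while without low library 43 it was -0.10, the lowest value with any 1 library left out.

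Single mitochondrial genes show the same overlap. For mt-Nd1, whose protein belongs to respiratory complex I, levels ran from 2184 to 17097 CPM in the high (median 5704) and from 1372 to 12953 CPM in the low libraries (median 3966), a ratio of 1.29 in the pool and 1.13-fold lower within the label. For mt-Cytb of complex III the pooled levels were 7448 and 6582 CPM, and for mt-Co1 of complex IV 5130 and 4859 CPM. By contrast, 9 of these genes were of the gained class: mt-Nd1 was at 4835 CPM in the intermediate and 603 CPM in the oocyte-like libraries, and mt-Co1 at 6387 and 546 CPM. Between the pooled Zscan4d groups every compared mitochondrial gene was under 2-fold apart, whereas within the label mt-Co2, mt-Co3 and mt-Atp6 were 2.39-fold, 2.19-fold and 2.1-fold lower in the high libraries. The count table had no mitochondrial ribosomal RNA to compare.

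**Figure D5:**
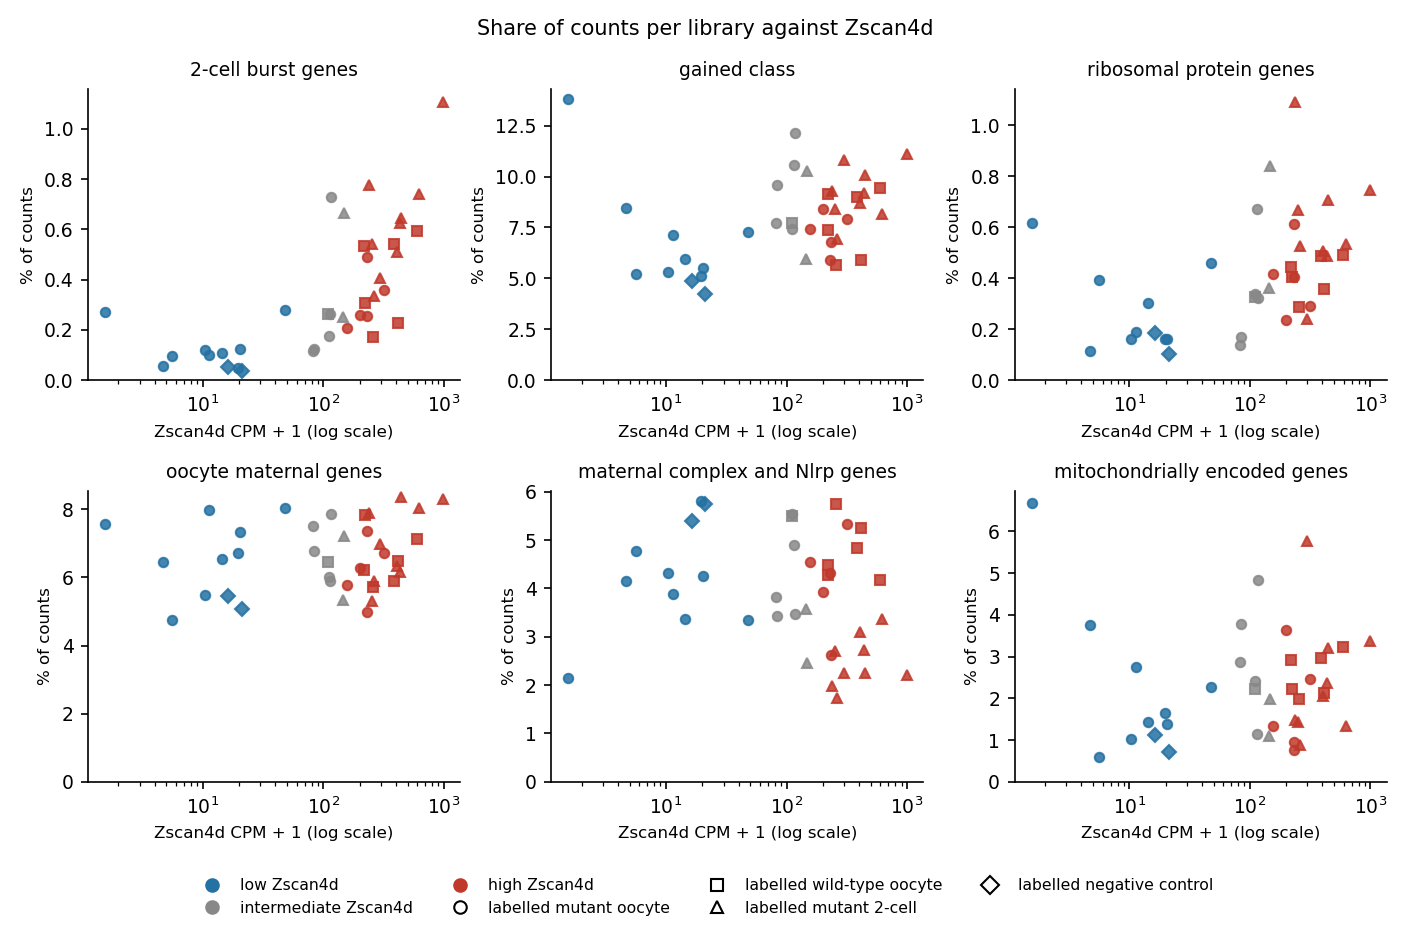
Share of each library's counts (y, percent) against Zscan4d (x, CPM + 1, log axis) for 6 gene groups in the 39 2-cell-like libraries, coloured by Zscan4d group and shaped by label. The 2-cell burst and ribosomal protein shares are higher to the right, the oocyte maternal and mitochondrially encoded shares are spread alike on both sides, and low library 41 stands highest for the gained class at 13.8%.

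Of nuclear genes for the same respiratory chain 23 of 54 compared (42.6%) were higher and 3 (5.56%) lower in the pool, beside 17.0% and 10.7% of all genes, and 28 lay within 2-fold. The list has 90 genes, of which 75 were in the deposited counts. The 54 compared had a median log2 ratio of 0.66 (interval 0.38 to 1.32), but their median within the label was 0.08. Within the label 15 were higher and 3 lower, beside 1573 and 1281 of all 8646 genes. The summed share of the 75 had medians of 0.442% in the high and 0.382% in the low libraries, and the order turned within the label, to 0.358% and 0.386%. Atp5g1, the ring subunit of ATP synthase, ran from 57.0 to 438 CPM in the high and from 10.2 to 155 CPM in the low libraries, 3.93-fold higher and 3.16-fold higher within the label. Of 24 genes that maintain or express the mitochondrial genome 13 could be compared, 2 higher and 2 lower (15.4% each): Twnk, the mitochondrial helicase, was 5.10-fold and Gabpa, an ETS factor, 6.53-fold higher, the latter 10.8-fold without low library 41. Mtpap, the mitochondrial poly(A) polymerase, was 2.30-fold lower, and 1.58-fold lower at the least when libraries were left out in turn. Mterf4 was 2.96-fold lower in the pool, 5.42-fold lower without high library 45, and 1.56-fold higher within the label.

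Of 79 cytosolic ribosomal protein genes 71 could be compared, of which 32 (45.1%) were higher and 0 lower in the pool, beside 17.0% and 10.7% of all genes, and 39 lay within 2-fold. Their median log2 ratio was 0.92 (interval 0.78 to 1.21). Within the label the median for the same genes was 0.73 with 28 higher and 1 lower, beside 1573 and 1281 of all 8646 genes. Their summed share ran from 0.238% to 1.09% in the high (median 0.486%) and from 0.101% to 0.616% in the low libraries (median 0.183%), so the groups overlap. Rpl41 ran from 19.0 to 669 CPM (median 339) against 4.65 to 162 CPM (median 35.6), 6.09-fold higher and 2.1-fold higher within the label.

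Other housekeeping groups had medians closer to equality, and their counts stand beside 17.0% higher and 10.7% lower of all genes. Proteasome genes had 10 higher (33.3%) and 1 lower of 30 compared and a median log2 ratio of 0.46, and nucleolus and ribosome biogenesis genes 16 higher (30.8%) and 1 lower of 52 with a median of 0.41, which was 0.09 within the label. Nhp2, a protein of small nucleolar particles, was at 85.1 against 9.62 CPM, 8.84-fold higher. Splicing factors had 10 higher (24.4%) and 3 lower (7.32%) of 41, with shares of counts of 0.429% in the high and 0.469% in the low libraries. Eftud2, a GTPase of the U5 particle, was at 3.17 against 31.6 CPM, 9.97-fold lower, 43.4-fold lower without high library 32 and 1.60-fold lower within the label. U2af1, which recognises the 3′ splice site, was 3.84-fold higher. RNA polymerase II and general transcription factors had 3 higher and 3 lower of 44 (6.82% each), and Taf5, a subunit of TFIID, ran from 4.51 to 161 CPM in the high and from 59.9 to 386 CPM in the low libraries, 3.00-fold lower and 2.41-fold lower within the label. Translation factors had 8 higher (23.5%) and 2 lower (5.88%) of 34. DNA replication genes had 5 higher (13.5%) and 3 lower (8.11%) of 37, both under the shares of all genes.

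Mitotic cell cycle genes had 6 higher (17.1%) and 0 lower of 35, beside 17.0% and 10.7% of all genes, with a median log2 ratio of 0.00 and 0.31 within the label. Their summed share, which the most abundant members weigh most, had medians of 1.88% in the high and 1.46% in the low libraries, and 7 of 20 high libraries lay above every low one. Within the label the medians were 1.79% and 1.46%, and the share had a Spearman rho of 0.58 with Zscan4d over the 39 libraries. Cdkn1a, the cyclin-dependent kinase inhibitor p21, was in both the early embryonic and the p53 lists. It ran from 28.0 to 263 CPM in the high libraries (median 125) and from 0 to 86.0 CPM in the low ones (median 6.72), 4.34-fold higher, 6.51-fold without low library 43 and 2.68-fold within the label. Of 22 compared p53 targets and DNA damage genes 9 (40.9%) were higher and 1 lower, among them Sesn2, a stress-induced regulator of mTORC1, 5.17-fold higher. The median log2 ratio of this list was 0.29 (interval -0.31 to 1.56), and 0.16 within the label. Its summed share had medians of 0.505% in the high and 0.493% in the low libraries, and of 0.470% and 0.516% within the label. Heat shock and stress genes had 5 higher (20.8%) and 1 lower of 24, and DNA methylation and heterochromatin genes 5 higher (16.1%) and 3 lower (9.68%) of 31, near the 17.0% and 10.7% of all genes except that fewer stress genes were lower.

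The genes whose CPM ranked most like Zscan4d over the 39 libraries were Ercc4, Spopfm3, Gm10552, Dkkl1, Ttc30b, Cdkn1a, Platr31, Snrpc, Limch1 and Eif1ad14, with Spearman rho from 0.73 to 0.75. All 39 share the preparation and the total that sets CPM. Lin7c had a rho of -0.73.

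Summed markers of other cells were low and their ranges overlapped between the groups, while some single genes differed. Of 28 cumulus and granulosa markers 8 were at 0 in all 31 libraries, Foxl2, Inha and Ptx3 among them. The summed level ran from 7.73 to 223 CPM in the high and from 25.2 to 238 CPM in the low libraries. Other cumulus and granulosa genes were present: Serpine2 was at 53.4 CPM in the high and 53.9 CPM in the low pool. Star had 282 counts in 7 high and 142 in 4 low libraries, and Has2 had 18 in 2 and 119 in 3. Of 16 sperm markers 4 were at 0, including the transition proteins Tnp1 and Tnp2, with sums from 7.08 to 402 CPM and from 105 to 413 CPM. Prm2, also a sperm gene, had 77 counts in 5 high and 107 in 6 low libraries. Of 16 blood markers 5 were at 0, including the leukocyte marker Ptprc, with sums from 2.76 to 160 CPM and from 4.80 to 141 CPM. Hba-a1, a haemoglobin chain, had a count in 16 of 20 high and 3 of 11 low libraries, at 10.04 against 0.757 CPM, 13.3-fold higher. Markers of trophectoderm and inner cell mass summed from 25.1 to 435 CPM and from 6.57 to 175.5 CPM, with Elf5 at 0. For this sum 8 of 20 high libraries lay above every low one. Of its 4 compared genes Gata3 was 2.56-fold higher and 3 lay within 2-fold. The part of these RNAs in the ratios above was not tested.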

How the data were processed

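The authors deposited raw gene counts, in whole numbers with no normalization. Reads were trimmed with Trim Galore 0.4.4 and aligned with HISAT2 2.1.0 to GRCm39, and DESeq2 was used, per the submitters' processing notes. The counting tool and the annotation are not given in the sources used here. The table has 36983 gene entries, of which 48 repeated a symbol and were summed into it, leaving 36935 symbols. Each of the 96 columns was matched to a sample by its label, and 0 columns lacked one.

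Pooled CPM, ratios and exact conditional binomial 95% intervals were computed with Python 3.11.15, numpy 2.4.6, pandas 2.3.3 and scipy 1.17.1, and the ratio was checked on simulated data. For a group without any count a floor of 3 counts was used, 0.0971 CPM for the high and 0.162 CPM for the low pool. Scaling alternatives used edgeR 4.0.16 and DESeq2 1.42.0 in R 4.3.3 for size factors only. Doublets were not searched for, because each library came from 1 picked cell. No test was run, since the groups were chosen on Zscan4d and no animal is named. Motifs were searched on both strands as the letters given in the report, and the Dux motif allowed any base at its centre.

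Genes were named by rule: up to 12 with the largest ratio each way among genes at least 2-fold apart with library medians (plus 1 CPM) at least 1.5-fold apart in that direction and whose ratio stayed at least 1.5-fold without any single library; up to 4 of each list; the 12 strongest of each class; and the 10 most like Zscan4d. The text gives a part of these, leaves out some that are not reported here, and adds genes of the sharpest set, chosen after values were seen. The libraries and gene lists were chosen with earlier results of these data known. Alternatives changed the scaling, filter, Zscan4d limits, depth, labels and each library in turn. The libraries of at least 8000 genes, alone and within the label mutant oocyte, were added after the data were seen, as were the burst genes without Zfp352 and the gained class without mitochondrial genes.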

Additional observations from a re-analysis of the deposited data

Results flagged for a closer look

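Shares of counts of the main gene groups were examined among libraries with the same Zscan4d group and label, over 40 sets of 4 to 10 libraries, and in 2 sets the highest library lay far from the others relative to the range. Chance marks about 1 in 20 such sets of libraries (groups) in this way. Library 42, intermediate for Zscan4d and labelled mutant oocyte, had 0.728% of its counts in 2-cell burst genes, and the next library of its group had 0.262%. Library 41, low for Zscan4d and labelled mutant oocyte, had 13.8% of its counts in the gained class, and the next had 8.45%. Of this class 9 genes are mitochondrially encoded, and all mitochondrially encoded protein genes took 6.67% of the counts of library 41. Without those 9 genes its share was 7.17% and the next was 5.04%. The same library had 4328 genes with a count, and the part of its low gene number in these shares was not tested.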

How the results depend on the processing

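Log2 medians below are over compared genes. With library medians plus 1 CPM, 1512 genes were lower, and burst, mitochondrial, ribosomal and gained-class medians were 3.02, 0.37, 1.23 and 1.18. A filter of 1 CPM without a library share gave 4934 higher and 2996 lower genes, and moved the median of all genes by 0.12. A filter of 30 CPM gave 672 and 544, with the lost class at -0.14. At least 300 against under 20 CPM of Zscan4d (9 against 9 libraries) gave 1467 lower genes and medians of 2.82 (burst), 0.22 (mitochondrial) and -0.058 (lost class). Only libraries labelled mutant oocyte, filtered within that label, gave 1.5 (burst), -0.54 (mitochondrial), 0.073 (oxidative phosphorylation), 0.74 (ribosomal), 0.60 (gained) and 0.34 (lost). The same label with at least 8000 genes per library (5 against 7) gave -0.18 (mitochondrial), 0.20 (oxidative phosphorylation), 0.68 (gained) and 0.21 (lost). All libraries with at least 8000 genes gave 2.64 (burst) and 1.24 (ribosomal), and leaving out the negative control labels gave 0.18 (lost). Without Zfp352 the burst median was 2.39, and without mitochondrially encoded genes the gained-class median was 0.90, both chosen after the data were seen.

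Single genes turned as follows: Gata1 -0.42 and Cnot6 0.65 with library medians, Cnot6 0.22 with at least 8000 genes and from -1.52 to 0.093 when libraries were left out in turn, the highest without low library 41, Psma6 -0.27 with 1 limit at 100 CPM of Zscan4d, and Khdc3 -0.72, Mterf4 0.64 and Cyp19a1 0.52 within the label mutant oocyte. With that label and at least 8000 genes, Khdc3 was -0.94, Cnot6 0.020, Mterf4 0.35, Cyp19a1 0.41 and Trim43a -0.49. The cause of these moves was not tested.

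Leaving out each library in turn gave 1364 to 1575 higher and 904 to 1047 lower genes. Medians ran from 2.21 to 2.55 (burst), -0.18 to 0.01 (oocyte maternal), -0.50 to -0.18 (maternal complex and Nlrp), -0.10 to 0.30 (mitochondrial), 0.53 to 0.88 (oxidative phosphorylation), 0.80 to 1.21 (ribosomal), 0.79 to 0.97 (gained) and -0.10 to 0.12 (lost). Requiring 500000 counts kept the same 20 and 11 libraries. Comparisons within the labels wild-type oocyte and mutant 2-cell could not be run, because 0 low libraries carry them. No paired analysis was possible because each library has its own number and the groups share none.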
